A study of Mus musculus with 768 samples.

Results

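The cells described here were intermediate Schwann cells (SC) from the sciatic nerves of P5 mice. They were chosen by 2 gate genes, Ncmap and Pmp22, which both code for proteins of peripheral myelin. A well was a member when it held 10 CPM or more of Ncmap and less than 30000 CPM of Pmp22, where CPM is the number of reads of a gene scaled to 1000000 counted reads in that well. The rule kept wells with 1500 or more detected genes, left out the 4 corner wells of each plate, and left out cycling wells, which held 5 or more reads in each of 3 or more of 10 cell cycle genes. Of 768 wells, 655 were kept, and 149 of these were members, 79 on the replicate 1 plate and 70 on the replicate 2 plate. The other 449 non-cycling wells fell into 228 Ncmap-negative wells (106 and 122), with less than 10 CPM of Ncmap, and 221 Pmp22-high wells (108 and 113), with Ncmap and with 30000 CPM or more of Pmp22. Cycling wells numbered 57 (32 and 25).

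All cells came from nerves of pups that carried an eYFP reporter switched on by P0cre recombination and a dsred transgene under the beta-actin promoter, and eYFP-positive cells were sorted 1 per well by FACS. Male and female pups were pooled 1:1 for each plate, and each plate of 384 wells was labelled as 1 biological replicate, so n = 2. P0cre acts from early in the SC lineage, so the sort took SC of every stage and could take other cells with a history of P0cre activity. There was no treatment, and all groups of wells shared genotype, age and tissue.

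Immature SC first surround bundles of axons and then sort large axons into a 1:1 relation. The pro-myelinating SC that results has left the cell cycle and carries transcription factors such as POU3F1 (also called OCT6) and EGR2, but has not yet wrapped myelin. Myelinating SC then make large amounts of myelin proteins together with the cholesterol and other lipids of the myelin membrane.

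The plates held 226050990 and 203322077 counted reads, and kept wells held from 3306 to 2495101 reads. Member wells had a median of 524752 reads and 3291 detected genes on the replicate 1 plate, and 510832.5 reads and 3700 genes on the replicate 2 plate. Ncmap-negative wells had fewer reads (medians 476353.5 and 418998.5) and Pmp22-high wells had more (819461.5 and 719230). The median share of mitochondrial reads lay between 2.61% and 2.88% in the 3 non-cycling states. For comparisons the reads of all wells of a state were summed per plate, so that wells with more reads weighed more, and a level given for a state is the CPM of that sum. Fewer cells with a transcript and less transcript per cell cannot be told apart in a sum, so the share of wells with 10 CPM or more is given where it helps.

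Members made up 24.3% of the kept wells on the replicate 1 plate (exact Clopper-Pearson 95% interval 19.7 to 29.3%) and 21.2% on the replicate 2 plate (16.9 to 26.0%), a mean of 22.8% ± 2.19 (SD, n = 2). Intervals cover counting error only. The Ncmap gate fell where wells were scarce, with 7 and 1 non-cycling wells between 10 and 100 CPM, whereas the Pmp22 gate cut through a continuous range. Among Ncmap-positive wells, 20 and 18 lay between 20000 and 30000 CPM of Pmp22, and 21 and 14 between 30000 and 40000 CPM. The members nearest the Pmp22 gate had 29331 and 29896 CPM, and the nearest Pmp22-high wells had 31333 and 30776 CPM. The members nearest the Ncmap gate had 11.4 and 52.6 CPM, and the nearest Ncmap-negative wells had 7.60 and 7.92 CPM. Because the gates set these values, they are a description and were not tested.

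**Figure D1:**
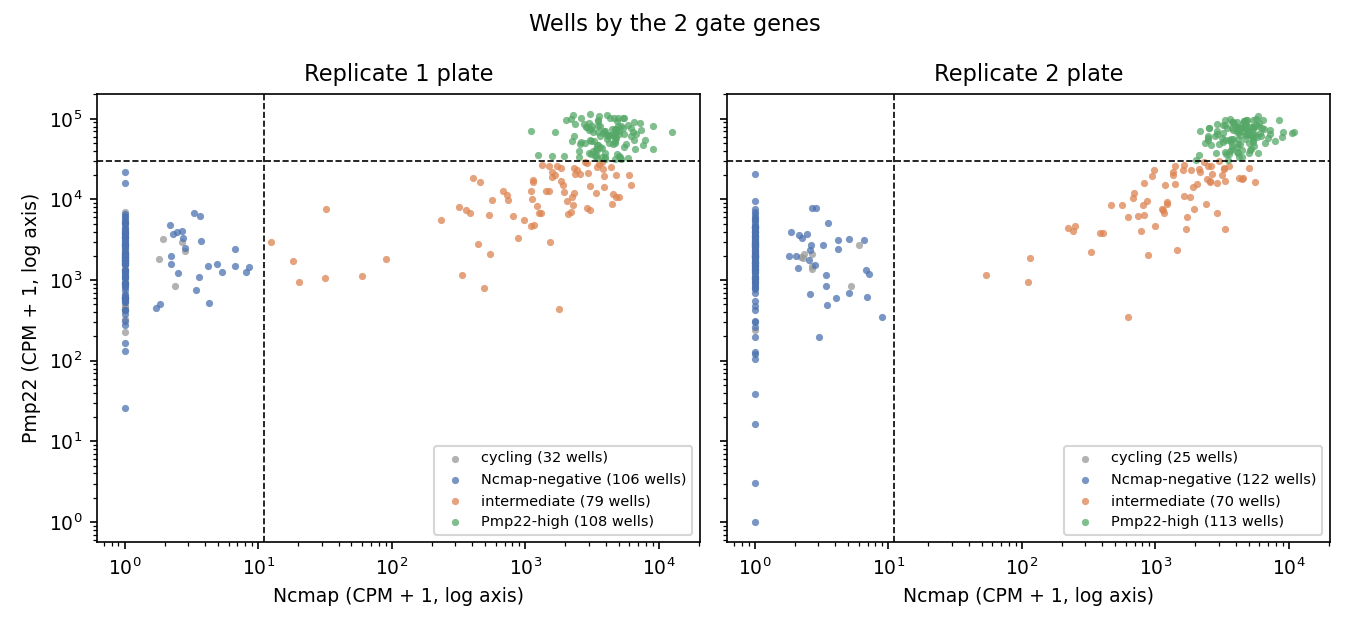
Each point is 1 kept well, cycling wells included, with Ncmap on the horizontal axis and Pmp22 on the vertical axis. Both are CPM + 1 on log axes, in a panel per plate. The 79 and 70 member wells spanned Pmp22 from 440 and 344 CPM up to the gate at 30000 CPM, and their median Ncmap was 1579 and 1432 CPM.

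Members carried Ncmap at a median of 1579 CPM (lowest 11.4, highest 6208) on the replicate 1 plate and 1432 CPM (52.6 to 5602) on the replicate 2 plate. Their Pmp22 had a median of 11441 CPM (440 to 29331) and 11499 CPM (344 to 29896). No Ncmap-negative well reached 30000 CPM of Pmp22. Every Pmp22-high well was also well past the Ncmap gate, at 1110 CPM or more on the replicate 1 plate and 2010 CPM or more on the replicate 2 plate.

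Members were SC by their other transcripts. At least 3 of 8 genes used by SC of every stage (among them Sox10, S100b, Erbb3 and Cdh19) had 5 or more reads in 77 of 79 and 69 of 70 member wells. By edgeR 0 of these 8 genes were called against either neighbour. That is near the share of all genes called, 2.31% higher and 1.37% lower against Ncmap-negative wells. Against Pmp22-high wells the shares were 0.859% and 0.991%, so the 0 calls cannot bear on identity. Against Ncmap-negative wells 3 of the 8 genes were higher and 2 lower at an unadjusted p below 0.05, and DESeq2 called as many. Against Pmp22-high wells both counts were 0. No member well met the same criterion for endothelial, immune, pericyte, neuron or skeletal muscle genes. The fibroblast list was met by 35 of 79 and 35 of 70 member wells, by 53 of 106 and 53 of 122 Ncmap-negative wells and by 38 of 108 and 39 of 113 Pmp22-high wells. Col3a1 (719 and 487 CPM) and Col1a1 (392 and 381 CPM) held most of that list's reads in members, which came to 1246 and 994 CPM. The criterion asks for 3 genes, so wells that met it also held another list gene, such as Col14a1. The defining fibroblast genes Dcn (13.7 and 11.4 CPM) and Lum (13.1 and 4.32 CPM) were low. Pdgfra was not detected in the members of the replicate 1 plate but was detected in those of the replicate 2 plate. Col3a1 was lower in members than in Ncmap-negative wells (log2 change -1.29, SE 0.21, adjusted p = 0.0114) and higher than in Pmp22-high wells (1.84, SE 0.21, adjusted p = 0.00427). The part of other cells' RNA in these collagen reads was not tested.

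Of 6 genes put forward as marks of these cells, 5 were detected in most member wells and 1 was not. Cdkn1c, which codes for the cell cycle inhibitor p57, had 10 CPM or more in 63 of 79 and 57 of 70 member wells. Pou3f1 reached that level in 60 of 79 and 64 of 70 wells, Ezr in 67 of 79 and 64 of 70, Nipal1 in 47 of 79 and 56 of 70, and Cd63 in 77 of 79 and 69 of 70. Cdkn1c and Pou3f1 were found together in 51 of 79 and 51 of 70 member wells. Lgals3, which codes for the glycan-binding protein galectin-3, went against the label, with 0 of 79 and 1 of 70 member wells at 10 CPM or more. That 1 well held 37402 of the 37403 Lgals3 reads of the replicate 2 members, and the sum was 898 CPM with it and 0.0250 CPM without it. In the replicate 1 members, where no Lgals3 read was counted, the exact 95% interval allows a share of up to 4.56% of wells. These 6 genes were proposed with results of these data known, so their levels in the members are a description and no independent evidence.

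**Figure D2:**
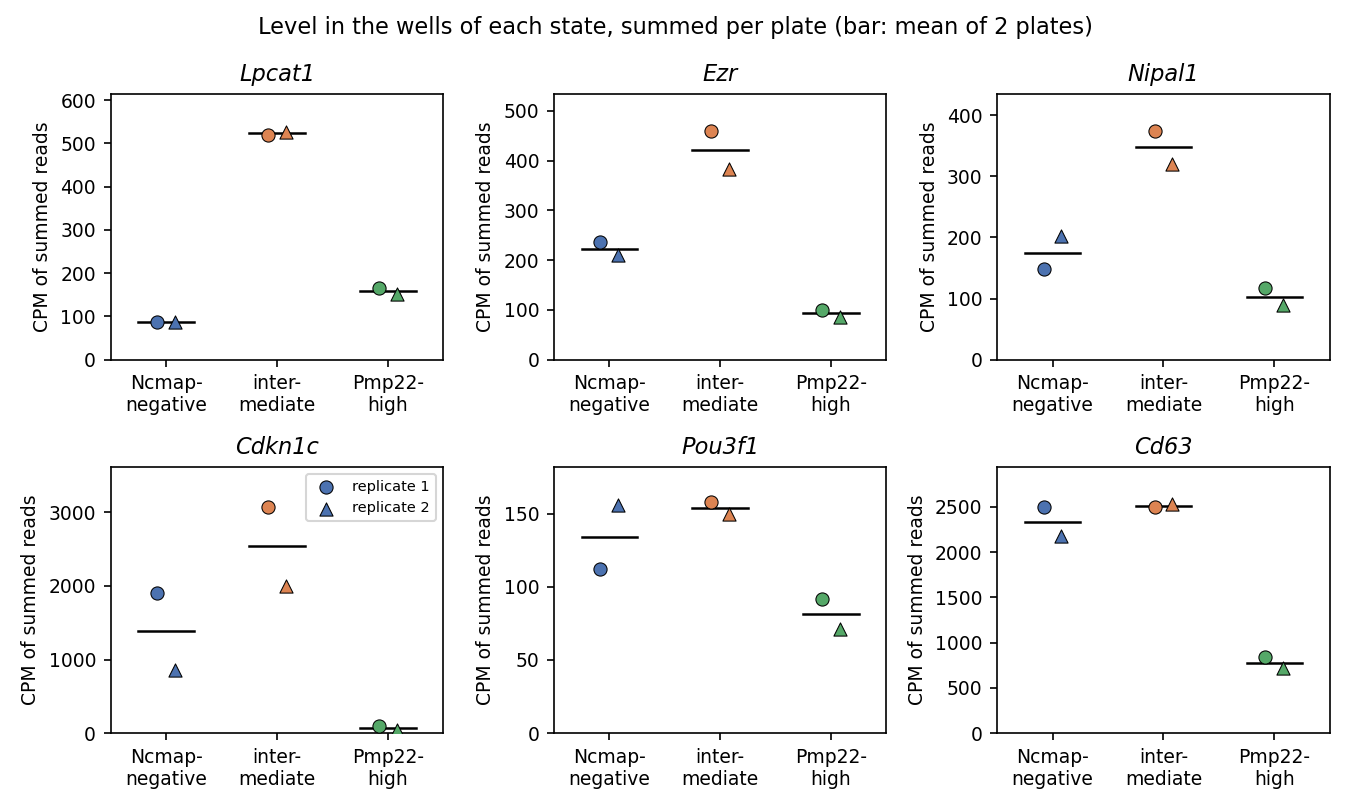
CPM of the summed reads of each state (vertical axes from 0) for Lpcat1 and for 5 of the 6 proposed genes, with circles for the replicate 1 plate, triangles for the replicate 2 plate and a bar at the mean of both. Lpcat1, Ezr and Nipal1 were highest in intermediate wells on both plates, Cdkn1c was highest there on each plate but varied between plates, and Cd63 and Pou3f1 overlapped with the Ncmap-negative wells.

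Members were first compared with all other non-cycling wells, a mixture to which Pmp22-high wells gave most reads (98479212 and 87240630, against 53948232 and 59939925 from Ncmap-negative wells). Of 13548 genes tested, 3 were higher in members, which is 0.0221% of the genes tested, and 34 were lower, which is 0.251%, while 1751 had an unadjusted p below 0.05. With the plates as pairs (a replicate block in the fit) 30 genes were higher and 62 lower, and all 37 genes of the unpaired fit were among them. Leaving out 1 of the 4 sums raised the counts, to 427 genes without the members of replicate 1, 761 without those of replicate 2, 71 without the others of replicate 1 and 59 without the others of replicate 2. A fit without 1 sum has no spread between plates in that group, so these higher counts are no sign of robustness. DESeq2 called 773 genes on the 4 sums, 257 higher and 516 lower.

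The 3 genes higher in members were Lpcat1, Ezr and Nipal1, and the last 2 of them were among the 6 proposed genes. Lpcat1 (chromosome 13, 73467197 to 73516422, plus strand of GRCm38) codes for a lysophosphatidylcholine acyltransferase, an enzyme that makes phosphatidylcholine. Its level was 519 and 528 CPM in members, 87.8 and 86.4 CPM in Ncmap-negative wells and 165 and 152 CPM in Pmp22-high wells. Both members' values were above all 4 others. Its log2 change was 1.96 (SE 0.14, adjusted p = 0.0142) against all others, 2.73 (SE 0.16, adjusted p = 7.28e-05) against Ncmap-negative wells and 1.48 (SE 0.15, adjusted p = 0.00262) against Pmp22-high wells. Lpcat1 reached 10 CPM in 86.1% and 88.6% of member wells, 48.1% and 47.5% of Ncmap-negative wells and 64.8% and 70.8% of Pmp22-high wells. When each well was thinned to 200000 reads and 2 or more reads were asked for, the shares were 89.1% and 89.2%, 50% and 47.7%, and 65.0% and 70.6%, in the same order.

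The 250 bases before the start of Lpcat1 in RefSeq (GRCm38.p6, chr13:73466981-73467230, plus strand) are shown because Lpcat1 had the largest log2 change of the 3 genes called higher against all others. Capitals mark ATGCAAAT, the octamer to which POU proteins are known to bind, whose first base lies 122 bases before the start.
Lpcat1: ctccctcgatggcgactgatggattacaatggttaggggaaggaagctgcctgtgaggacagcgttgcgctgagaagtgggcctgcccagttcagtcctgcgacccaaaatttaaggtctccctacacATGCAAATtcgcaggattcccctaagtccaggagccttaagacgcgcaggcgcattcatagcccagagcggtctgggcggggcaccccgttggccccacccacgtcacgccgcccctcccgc
The octamer was found on either strand in 570 of 32851 RefSeq promoters of the same 300 base window, which is 1.74%. The windows of Ezr and Nipal1 held neither it nor CATTCC (in 14.7% of promoters), ACAAAG (18.7%) or GCGTGGGCG (0.612%), and the Lpcat1 window held only the octamer of these 4 motifs. A match of letters is no evidence of binding.

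Ezr (chromosome 17, 6738041 to 6782784, minus strand) codes for ezrin, which links the plasma membrane to actin filaments. It stood at 459 and 384 CPM in members, 236 and 210 CPM in Ncmap-negative wells and 100 and 86.4 CPM in Pmp22-high wells, with no overlap between the groups. Its log2 change was 1.53 (SE 0.16, adjusted p = 0.0367) against all others, 1.06 (SE 0.18, adjusted p = 0.0148) against Ncmap-negative wells and 1.94 (SE 0.18, adjusted p = 0.00186) against Pmp22-high wells. Exons of Sytl3 overlap those of Ezr, and the protocol does not mark strand, so reads of the shared bases cannot be assigned. The call against Ncmap-negative wells was lost without the members of replicate 1 (adjusted p = 0.0568) or the Ncmap-negative wells of replicate 2 (adjusted p = 0.0688). None of its relatives and partners (Rdx, Msn, Nf2, Slc9a3r1, Slc9a3r2) was higher in members in any of the 3 comparisons, and Slc9a3r2 was lower than in Pmp22-high wells (32.9 and 33.1 against 108 and 111 CPM, log2 change -1.97, SE 0.30, adjusted p = 0.0152).

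Nipal1 (chromosome 5, 72647795 to 72671078, plus strand) belongs to the NIPA family of magnesium transporters. It stood at 374 and 320 CPM in members, 148 and 202 CPM in Ncmap-negative wells and 116 and 89.5 CPM in Pmp22-high wells, again with the members' values above all others. Its log2 change was 1.37 (SE 0.16, adjusted p = 0.0468) against all others, 1.13 (SE 0.23, adjusted p = 0.0312) against Ncmap-negative wells and 1.52 (SE 0.23, adjusted p = 0.0147) against Pmp22-high wells. The call against Ncmap-negative wells was lost without the members of replicate 1 (adjusted p = 0.0907) or the Ncmap-negative wells of replicate 1 (adjusted p = 0.109). Nipal1 was the only called gene of the 4 family members tested. The calls of Lpcat1, Ezr and Nipal1 depended on the gates, and some on the wells fitted. With the Pmp22 gate at 20000 CPM, adjusted p = 0.064 for Lpcat1, 0.103 for Ezr and 0.103 for Nipal1, and with the Ncmap gate at 20 CPM, adjusted p = 0.0606 for both Ezr and Nipal1. Nipal1 was also lost against all others with the Ncmap gate at 5 CPM (adjusted p = 0.0592) and without plate columns 8 and 16 (adjusted p = 0.0674). With the Pmp22 gate at 20000 CPM Nipal1 was lost against Ncmap-negative wells (adjusted p = 0.0753) and Pmp22-high wells (adjusted p = 0.0746), and with cycling sums in the fit likewise (adjusted p = 0.144 and 0.0871). Ezr was lost against Ncmap-negative wells with the Ncmap gate at 20 CPM (adjusted p = 0.0524) and with cycling sums (adjusted p = 0.0605).

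Cdkn1c had the largest log2 change of the 6 proposed genes against Pmp22-high wells among those detected in most members, and it also varied most. Its level was 3078 and 2005 CPM in members, 1908 and 861 CPM in Ncmap-negative wells and 91.2 and 49.2 CPM in Pmp22-high wells. Members exceeded the Ncmap-negative wells on each plate, but the replicate 2 members lay close to the replicate 1 Ncmap-negative wells. The log2 change was 4.94 (SE 0.47, adjusted p = 0.00186) against Pmp22-high wells, 1.03 (SE 0.40, adjusted p = 0.265) against Ncmap-negative wells and 2.16 (SE 0.36, adjusted p = 0.134) against all others. With the plates paired the last 2 passed, at adjusted p = 0.00173 and adjusted p = 0.000465. Without any 1 of the 4 sums the log2 change against all others lay between 1.76 and 2.72. Without the Ncmap-negative wells of replicate 1, that against Ncmap-negative wells was 1.7. Such fits leave 1 sum in a group and lose its spread between plates, so only their effect sizes are given. Single member wells ranged from 0 to 23344 CPM on the replicate 1 plate (median 667) and from 0 to 17035 CPM on the replicate 2 plate (median 797), so the sums rested on a minority of wells with very high levels. Without the well with the most Cdkn1c reads in each sum, members had 2799 and 1747 CPM.

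Cd63, a tetraspanin of late endosomes and lysosomes, separated members from Pmp22-high wells but not from Ncmap-negative wells. It stood at 2493 and 2534 CPM in members, 2501 and 2174 CPM in Ncmap-negative wells and 843 and 717 CPM in Pmp22-high wells. The log2 change was 1.45 (SE 0.12, adjusted p = 0.00104) against Pmp22-high wells and 0.25 (SE 0.12, adjusted p = 0.372) against Ncmap-negative wells. Against all others it was 0.84 (SE 0.10, adjusted p = 0.0509), and with the plates paired adjusted p = 0.0075. Without any 1 of the 4 sums the log2 change ran from 0.78 to 0.91. Pou3f1 had 158 and 150 CPM in members, 112 and 156 CPM in Ncmap-negative wells and 91.4 and 71.5 CPM in Pmp22-high wells. Pou3f1 passed no edgeR test, with log2 changes of 0.56 (SE 0.16, adjusted p = 0.294) against all others, where DESeq2 gave 0.58 (adjusted p = 0.0464), 0.34 (SE 0.24, adjusted p = 0.557) against Ncmap-negative wells and 0.68 (SE 0.24, adjusted p = 0.243) against Pmp22-high wells.

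Among the 34 genes lower in members than in all others were genes of either end, and Ccn1 and Id3, which lay below both ends. Ccn1 (chromosome 3, 145646976 to 145649981) codes for a secreted matricellular protein and is known as a target of YAP and TAZ. It had 196 and 126 CPM in members, 1964 and 2168 CPM in Ncmap-negative wells and 945 and 611 CPM in Pmp22-high wells, and no value of another group reached down to the members. Its log2 change was -3.53 (SE 0.28, adjusted p = 0.000306) against Ncmap-negative wells and -2.51 (SE 0.27, adjusted p = 0.00290) against Pmp22-high wells. Ccn1 reached 10 CPM in 27.8% and 34.3% of member wells, against 56.6% and 66.4% of Ncmap-negative and 56.5% and 57.5% of Pmp22-high wells. Id3, an inhibitor of basic helix-loop-helix factors, had 4.59 and 8.02 CPM in members, 126 and 112 CPM in Ncmap-negative wells and 37.7 and 47.7 CPM in Pmp22-high wells (adjusted p = 0.000617 and 0.00498 against the neighbours). Its call against Ncmap-negative wells was lost in 1 of 20 alternative settings (adjusted p = 0.0757). Against Pmp22-high wells it was lost in 4 of 20 (adjusted p up to 0.192). Only 2.53% and 2.86% of member wells reached 10 CPM of Id3.

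The other genes named by size in this comparison were low in members and in 1 neighbour. Slc43a3, a membrane transporter gene (7.91 and 7.13 CPM in members, 342 and 269 CPM in Ncmap-negative wells), Ptn, which codes for the growth factor pleiotrophin (18.2 and 20.6 against 271 and 380 CPM), and Postn, which codes for the matrix protein periostin (31.2 and 28.1 against 315 and 362 CPM), were low in members as in Pmp22-high wells. H2-DMa, which serves antigen loading (7.12 and 14.2 CPM in members, 291 and 261 CPM in Pmp22-high wells), Cntf, the ciliary neurotrophic factor gene (14.6 and 16 against 229 and 298 CPM), Zfp91 (36.0 and 46.2 against 261 and 319 CPM) and Fam178b (37.3 and 67.1 against 613 and 661 CPM) were low in members as in Ncmap-negative wells. Exons of Cntf and Zfp91 overlap each other and those of H2-DMa overlap Brd2, so their reads are uncertain. Against all others the call of Zfp91 was lost in 5 of 17 alternative settings, and those of Cntf and Ptn in 3 each. The calls of Slc43a3 and Postn were lost in 2 each and that of Fam178b in 1, while H2-DMa was called in all 17.

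Against Ncmap-negative wells, the neighbour on the immature side, members had higher levels of myelin genes. Of 13627 genes tested, 315 were higher, which is 2.31%, and 187 were lower, which is 1.37%. Because Pmp22 and Ncmap set the gates, genes whose transcripts vary with them from well to well differ between these states by the choice of wells, and the counts describe that choice. Pmp2, which codes for a fatty acid binding protein of myelin, had 24.3 and 27.5 CPM in Ncmap-negative wells, 750 and 803 CPM in members and 3136 and 3518 CPM in Pmp22-high wells (log2 change 5.05, SE 0.14, adjusted p = 8.06e-07 against Ncmap-negative wells), although exons of Gm37389 overlap it, so reads of the shared bases are uncertain. Slc36a2, an amino acid transporter gene, rose from 66.5 and 36.2 CPM to 739 and 544 CPM (log2 change 3.79, SE 0.30, adjusted p = 0.000306), and stood at 1191 and 1121 CPM in Pmp22-high wells.

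Some of these genes were nearly absent from Ncmap-negative wells and rare in members. Drp2, a partner of periaxin, had 0 and 0.0167 CPM in Ncmap-negative wells, 16.4 and 6.29 CPM in members and 193 and 181 CPM in Pmp22-high wells, and it reached 10 CPM in 10.1% and 7.14% of member wells against 65.7% and 73.5% of Pmp22-high wells. Sept3, which codes for a septin (18.6 and 26.4 CPM in members, 147 and 116 CPM in Pmp22-high wells), and Mme, which codes for neprilysin (55.3 and 24 against 169 and 135 CPM), had below 0.1 CPM in Ncmap-negative wells. No fold against Ncmap-negative wells is given for these 3 genes. Hid1 (43.9 and 53.4 CPM in members, 5.45 and 1.77 CPM in Ncmap-negative wells) and Il16 (56.9 and 52.8 against 4.67 and 3.57 CPM) were present in 32.9% to 40.5% of member wells.

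Several genes lower than in Ncmap-negative wells reached 10 CPM in few members. Entpd2, an ectonucleotidase gene, fell from 620 and 857 CPM to 7.98 and 55 CPM. Rxrg, which codes for a retinoid X receptor, fell from 186 and 165 CPM to 10.3 and 17.1 CPM, and Ifitm3 from 166 and 201 CPM to 5.65 and 14.8 CPM. Pdlim4 had 166 and 143 CPM in Ncmap-negative wells and 1.13 and 0.0240 CPM in members, where 1 of 79 and 0 of 70 wells reached 10 CPM. The few members with these transcripts carried most of their reads, 61.3% of Entpd2 and 59.2% of Ifitm3 reads of the replicate 2 members being in 1 well each. The calls of Entpd2 and Pdlim4 were lost without the Ncmap-negative wells of replicate 2 (adjusted p = 0.0515 and 0.0555), and that of Pdlim4 also without the members of replicate 2 (adjusted p = 0.0503).

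Against Pmp22-high wells, the neighbour on the myelinating side, 117 of 13627 genes were higher in members, which is 0.859%, and 135 were lower, which is 0.991%. Genes higher in members included the adhesion genes Ntm (106 and 88.0 CPM) and Cd44 (41.2 and 77.4 CPM), both below 0.1 CPM in Pmp22-high wells. They reached 10 CPM in only 20.3% and 21.4% (Ntm) and 13.9% and 18.6% (Cd44) of member wells, and no fold is given. Ncam1, an adhesion molecule of immature and non-myelinating SC, had 93.6 and 56.1 CPM in members, 2.98 and 3.89 CPM in Pmp22-high wells and 516 and 473 CPM in Ncmap-negative wells. Its log2 change was 4.21 (SE 0.31, adjusted p = 0.000652) against Pmp22-high wells and -2.58 (SE 0.28, adjusted p = 0.00185) against Ncmap-negative wells. Also higher than in Pmp22-high wells were S1pr3, a receptor for sphingosine 1-phosphate (10.9 and 21.4 against 0.741 and 0.172 CPM), 1500015O10Rik (33.4 and 33.1 against 1.21 and 2.80 CPM), Ifitm3 and Rxrg.

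Genes lower in members than in Pmp22-high wells included Ogn, which codes for the matrix proteoglycan osteoglycin (84.9 and 74.0 against 502 and 564 CPM, log2 change -2.98, SE 0.22, adjusted p = 0.000652). The call of Ogn was lost in 1 of 20 alternative settings (adjusted p = 0.421). Chst2, a sulfotransferase gene, had 17.8 and 9.80 against 169 and 172 CPM, and 1 well held 75.6% and 89.7% of the members' reads. The call of Chst2 was lost in 6 of 20 alternative settings (adjusted p up to 0.205). Without the members of replicate 2 its log2 change was -3.49. Lss, the lanosterol synthase gene, had 34.7 and 34.7 against 239 and 202 CPM (log2 change -2.91, SE 0.24, adjusted p = 0.000861). The call of Lss was also lost in 1 of 20 alternative settings (adjusted p = 0.347).

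Most genes of myelin proteins were higher in members than in Ncmap-negative wells. Of 6 compact myelin genes, 4 were higher and 0 lower in members than in Ncmap-negative wells (Mbp, Pmp2, Mal and Pllp), and the same 4 were lower than in Pmp22-high wells, with a median log2 change over the list of 1.46 and -1.01, against -0.02 and -0.00 over all genes tested. Of all genes tested, 2.31% were higher than in Ncmap-negative wells and 0.991% lower than in Pmp22-high wells. Mbp, the myelin basic protein gene, had 4705 and 4724 CPM in Ncmap-negative wells, 19971 and 20075 CPM in members and 56101 and 54764 CPM in Pmp22-high wells. The plates differed little beside these steps, with log2 changes of 2.23 (SE 0.06, adjusted p = 8.06e-07) and -1.71 (SE 0.06, adjusted p = 1.11e-05). Pllp, which codes for plasmolipin, was nearer the upper end, at 2409 and 2289 CPM in members and 3332 and 3168 CPM in Pmp22-high wells, from 642 and 598 CPM.

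Of 11 genes of non-compact myelin, junctions and the periaxin complex, 9 were higher and 0 lower than in Ncmap-negative wells (median log2 change 2.29), and 5 were lower and 0 higher than in Pmp22-high wells (median -0.98). Among all genes tested, 2.31% were higher than in Ncmap-negative wells and 0.991% lower than in Pmp22-high wells. Mag, an adhesion protein that faces the axon, went from 234 and 201 CPM in Ncmap-negative wells to 1077 and 1032 CPM in members and 1490 and 1482 CPM in Pmp22-high wells. Prx, the periaxin gene, went from 301 and 404 CPM to 1459 and 1660 CPM and 2431 and 2776 CPM. The step below members was the larger for both, with log2 changes for Mag and Prx of 2.42 (SE 0.13, adjusted p = 4.93e-05) and 2.29 (SE 0.16, adjusted p = 0.000189), against -0.74 (SE 0.12, adjusted p = 0.0226) and -0.98 (SE 0.16, adjusted p = 0.0198) to Pmp22-high wells. Without the members of replicate 1, the last of these did not pass (adjusted p = 0.0544). Cldn19, a claudin of SC junctions, had 1161 and 1114 CPM in members and 1199 and 1330 CPM in Pmp22-high wells, which did not pass the test (-0.39 on the log2 scale, SE 0.12, adjusted p = 0.165). In Ncmap-negative wells it had 371 and 354 CPM.

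**Figure D3:**
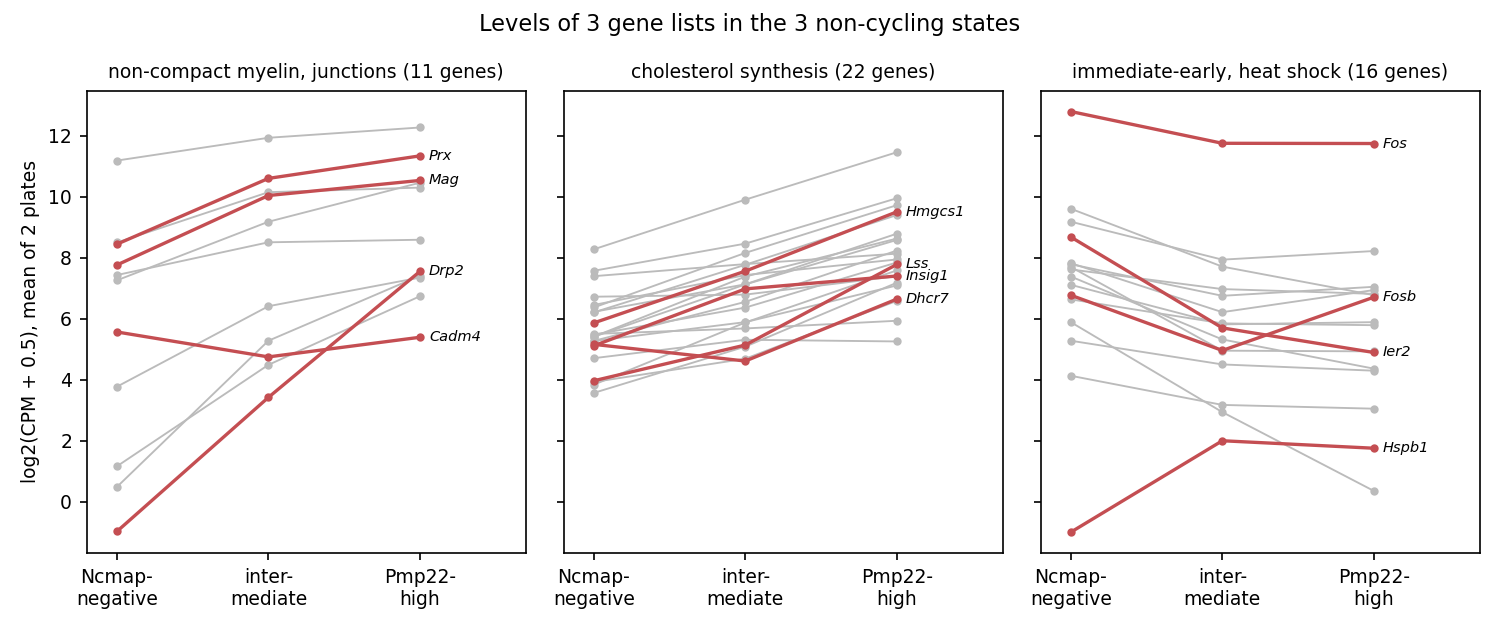
Each line is 1 gene, with its mean of log2(CPM + 0.5) over both plates in the 3 states, for 11 genes of non-compact myelin, 22 of cholesterol synthesis and 16 immediate-early and heat shock genes; 4 genes per panel are coloured and named. Mag and Prx made most of their step between Ncmap-negative and intermediate wells, Hmgcs1 and Lss rose through both steps, Dhcr7 was higher in Pmp22-high wells alone, and Fosb was lowest in intermediate wells.

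Genes of cholesterol synthesis were intermediate too, with the larger step on the side of Pmp22-high wells. Of 22 genes, 13 were higher and 0 lower in members than in Ncmap-negative wells (median log2 change 1.22), and 15 were lower and 0 higher than in Pmp22-high wells (median -1.76). Of all genes tested, 2.31% were higher than in Ncmap-negative wells and 0.991% lower than in Pmp22-high wells. Hmgcs1, an early enzyme of the pathway, had 51.7 and 64.6 CPM in Ncmap-negative wells, 192 and 185 CPM in members and 726 and 727 CPM in Pmp22-high wells. Its log2 change was 1.84 (SE 0.16, adjusted p = 0.000573) and -2.19 (SE 0.17, adjusted p = 0.000672). Dhcr7, which codes for the last enzyme of 1 branch of the pathway, was no higher than in Ncmap-negative wells (19.7 and 29.2 against 36.8 and 33.8 CPM, log2 change -0.39, SE 0.29, adjusted p = 0.582) and lower than in Pmp22-high wells (103 and 96.4 CPM, -2.27, SE 0.30, adjusted p = 0.00793). With the Pmp22 gate at 20000 CPM only 2 of the 22 genes were higher than in Ncmap-negative wells, and with cycling wells in the fit only 5 were lower than in Pmp22-high wells.

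Of 19 genes of fatty acid and sphingolipid synthesis, 7 were higher and 0 lower than in Ncmap-negative wells and 9 were lower and 0 higher than in Pmp22-high wells. Over all genes tested, 2.31% were higher than in Ncmap-negative wells and 0.991% lower than in Pmp22-high wells. The list's median log2 changes were 0.57 and -0.91. Fa2h, which makes the 2-hydroxy fatty acids of myelin lipids, had 82.7 and 75.2 CPM in Ncmap-negative wells, 412 and 414 CPM in members and 715 and 713 CPM in Pmp22-high wells (log2 change 2.53, SE 0.14, adjusted p = 6.40e-05 and -1.03, SE 0.13, adjusted p = 0.00728). Elovl1, an elongase of very long chains, had 1972 and 1694 CPM in members and 537 and 555 CPM in Ncmap-negative wells, and its exons overlap Cdc20. The count in Ncmap-negative wells fell to 2 with the Pmp22 gate at 20000 CPM, and that in Pmp22-high wells to 3 with cycling wells in the fit.

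Immature SC genes were retained in members to different degrees. Ngfr, which codes for the p75 neurotrophin receptor, reached 10 CPM in 2 of 79 and 3 of 70 member wells, against 45 of 106 and 46 of 122 Ncmap-negative wells and 1 of 108 and 0 of 113 Pmp22-high wells. In the replicate 2 members 1 well held 1664 of 1832 Ngfr reads, and the fitted change was not called. Ncam1 was kept more often, in 30 of 79 and 30 of 70 member wells. Id2 had 848 and 869 CPM in members, 1205 and 1349 CPM in Ncmap-negative wells and 291 and 201 CPM in Pmp22-high wells, and was higher than in the last (log2 change 1.56, SE 0.18, adjusted p = 0.00497). Jun had 440 and 313 CPM in members, between 868.1 and 1234 CPM and 148 and 64.8 CPM, and passed neither test (adjusted p = 0.107 and 0.0827). Of 9 genes tested of this list, 0 were higher and 1 lower than in Ncmap-negative wells (Ncam1), and 2 higher and 0 lower than in Pmp22-high wells (Ncam1 and Id2). Among all genes tested, 1.37% were lower than in Ncmap-negative wells and 0.859% higher than in Pmp22-high wells.

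Of 10 pro-myelinating markers and regulators, only Nab2, Zeb2 and Cdkn1c were called. Among all genes tested, 2.31% were called higher and 1.37% lower against Ncmap-negative wells, and 0.859% higher against Pmp22-high wells. Nab2, a partner of EGR2, had 105 and 106 CPM in members and 35.2 and 42.8 CPM in Ncmap-negative wells (log2 change 1.57, SE 0.24, adjusted p = 0.00901), and its exons overlap Nemp1 and Stat6. Zeb2, a repressor needed for myelination, had 162 and 146 CPM in members and 394 and 324 CPM in Ncmap-negative wells (-1.08, SE 0.19, adjusted p = 0.0166), a call lost without the Ncmap-negative wells of replicate 1 (adjusted p = 0.0691) or the members of replicate 2 (adjusted p = 0.0531). Egr2, the main transcription factor of myelin genes, had 236 and 180 CPM in members, 103 and 110 CPM in Ncmap-negative wells and 250 and 161 CPM in Pmp22-high wells. Members and Pmp22-high wells overlapped for Egr2 (adjusted p = 0.777), and the change from Ncmap-negative wells was 1.11 (SE 0.25, adjusted p = 0.0525). Sox10 had 270 and 235 CPM in members, within 178 to 311 CPM in all 3 states.

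Cyclins and inhibitors of cyclin-dependent kinases moved in different ways. Cdkn1a, which codes for p21, had 1917 and 1761 CPM in members, 224 and 184 CPM in Ncmap-negative wells and 2564 and 2364 CPM in Pmp22-high wells. It was higher than in Ncmap-negative wells (log2 change 3.32, SE 0.14, adjusted p = 1.68e-05) and somewhat lower than in Pmp22-high wells (-0.66, SE 0.13, adjusted p = 0.0420). The second call was lost in 8 of 20 alternative settings (adjusted p up to 0.533). These included the fits without any 1 of the 4 sums, where the log2 change lay between -0.75 and -0.59. Cdkn1b, which codes for p27, had 214 and 118 CPM against 37.3 and 37.6 CPM in Ncmap-negative wells (2.30, SE 0.34, adjusted p = 0.00795). Ccnd1, the cyclin D1 gene, had 562 and 542 CPM in members and 84.7 and 76.0 CPM in Pmp22-high wells (2.54, SE 0.14, adjusted p = 0.000110), but against 856 and 892 CPM in Ncmap-negative wells it did not pass (-0.52, SE 0.14, adjusted p = 0.0899). Of 9 genes tested, 2 were higher than in Ncmap-negative wells, and 3 were higher (Cdkn1c, Ccnd1 and Ccnd3) and 1 lower than in Pmp22-high wells. Shares over all genes tested were 2.31%, 0.859% and 0.991%, in the same order.

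Among 18 tetraspanin and lysosomal genes, Cd9 ran opposite to Cd63. Cd9, another tetraspanin, had 3469 and 2965 CPM in members, 1987 and 1831 CPM in Ncmap-negative wells and 11301 and 12141 CPM in Pmp22-high wells (log2 change 0.90, SE 0.10, adjusted p = 0.00250 and -2.10, SE 0.11, adjusted p = 9.41e-05). In all, 3 of the 18 were higher than in Ncmap-negative wells (Cd9, Cd82 and Ctsd), and 1 was higher (Cd63) and 3 were lower than in Pmp22-high wells. Shares over all genes tested were 2.31%, 0.859% and 0.991%, in the same order. The list's median log2 changes against the 2 neighbours were -0.052 and -0.085. The calls of Cd82 were lost without single sums on either side (adjusted p from 0.0506 to 0.127). Of 18 galectins, S100 proteins and annexins, 3 were lower than in Ncmap-negative wells and 2 were higher than in Pmp22-high wells. The shares over all genes tested were 1.37% and 0.859%. Median log2 changes over this list were near 0, at 0.0965 and -0.207. Lgals1, the galectin-1 gene, had 798 and 1058 CPM in members, between 2045 and 2174 CPM and 290 and 269 CPM. S100a4 had 320 and 582 CPM in members and 21.6 and 50.3 CPM in Pmp22-high wells (3.41, SE 0.43, adjusted p = 0.00699), and 264 and 201 CPM in Ncmap-negative wells (1.09, SE 0.40, adjusted p = 0.224).

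Of 16 immediate-early and heat shock genes, 9 were lower and 0 higher in members than in Ncmap-negative wells. Of all genes tested, 1.37% were lower and 2.31% higher in this comparison, and the list's median log2 change was -1.13. Fos had 3173 and 3772 CPM in members and 7093 and 7153 CPM in Ncmap-negative wells (log2 change -0.90, SE 0.09, adjusted p = 0.00150), with 3462 and 3421 CPM in Pmp22-high wells. Egr1 had 184 and 238 CPM against 750 and 812 CPM (-1.75, SE 0.22, adjusted p = 0.00335). Such genes are known to respond to tissue dissociation as well, and the part of handling was not tested. Fosb was lower than in both neighbours, at 23 and 40.8 CPM against 102 and 116 CPM (adjusted p = 0.0229) and 114 and 94.6 CPM (adjusted p = 0.0188). Against Pmp22-high wells 1 of the 16 genes was lower (Fosb) and 1 was higher (Egr3), beside 0.991% and 0.859% of all genes tested. The call of Egr3 was lost in 4 of 20 alternative settings. Against all other non-cycling wells only Ier2 was called, lower in members, beside 0.251% of all genes. That call was lost in 3 of 17 settings.

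To place the members between the ends, genes were taken that differed between Pmp22-high and Ncmap-negative wells, of which 663 were higher in Pmp22-high wells (4.87% of genes tested) and 504 lower (3.7%). A gene's position is the place of the members' mean log2(CPM + 0.5) on a line from 0 at Ncmap-negative to 1 at Pmp22-high wells. For genes higher in Pmp22-high wells the median position was 0.657 (quartiles 0.412 and 0.878), and for genes lower there it was 0.493 (0.315 and 0.726). Positions used plain CPM, without the scaling of totals used in the fitted changes. That scaling raises Pmp22-high levels and lowers Ncmap-negative levels relative to members, so both medians depend on it. Its part in the difference between the medians was not tested. On both plates 806 of the 1167 genes lay between 0 and 1, 93 lay above 1 and 32 lay below 0. The order of genes along this line is a description, since the gates put members between the ends and both ends share sums with the members' own comparisons.

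**Figure D4:**
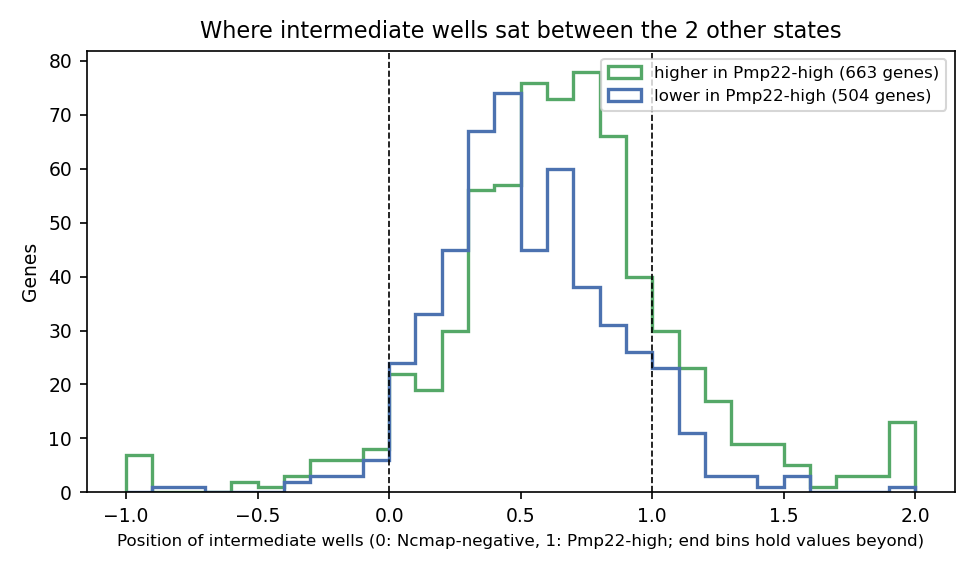
Histogram of positions (horizontal axis; 0 is the Ncmap-negative and 1 the Pmp22-high level, marked by dashed lines) over the 663 genes higher and the 504 genes lower in Pmp22-high wells (vertical axis, genes per bin of 0.1). In plain CPM, genes higher in Pmp22-high wells sat nearer 1 (median 0.657) than genes lower there (median 0.493). Both spread over the whole range. The scaling of totals used in the fitted changes was not applied, and the medians depend on it.

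Near position 0, where members were close to Ncmap-negative wells in plain CPM, were Cd63, Rps3a1 and Cpe, which codes for carboxypeptidase E. Rps3a1, a ribosomal protein gene, had 1112 and 1145 CPM in members and 1104 and 1205 CPM in Ncmap-negative wells. It had 532 and 586 CPM in Pmp22-high wells, and its reads may be shared with processed pseudogenes. Near position 1 were Lmo1, which codes for a LIM-only protein (282 and 291 CPM in members, 282 and 297 CPM in Pmp22-high and 76.4 and 41.1 CPM in Ncmap-negative wells), the linker histone gene H1f0 (310 and 302 CPM in members, 306 and 307 CPM in Pmp22-high and 726 and 684 CPM in Ncmap-negative wells), BC031181 and Tonsl. Midway were Sirt2, which codes for a deacetylase of myelinating glia (452 and 424 CPM in members, between 263 and 262 CPM and 744 and 700 CPM), Cfl1, Rsu1 and Tecr.

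The members themselves varied along the Pmp22 range. They were split at 10000 and 20000 CPM of Pmp22 into 35, 24 and 20 wells on the replicate 1 plate and 32, 20 and 18 wells on the replicate 2 plate, with median reads per well between 462661 and 683474. Cdkn1c had 6191 and 3504 CPM in the lowest range, 1480 and 793 CPM in the middle and 224 and 909 CPM in the highest. Ncam1 had 182 and 90.3 CPM, then 60.5 and 44.1 CPM, then 2.05 and 14.3 CPM. Mbp ran the other way, from 11551 and 11520 CPM through 19346 and 21895 CPM to 32249 and 31831 CPM.

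Hmgcs1 was steeper than Mbp, with 25.8 and 33.7 CPM, 225 and 165 CPM, and 392 and 450 CPM. In the lowest bin it was below the level of Ncmap-negative wells (51.7 and 64.6 CPM), while Mbp, Mag and Prx were already above theirs on both plates (Mag 833 and 687 CPM, Prx 1118 and 1076 CPM). Ezr changed little and in no common order, with 566 and 400 CPM, 335 and 389 CPM, and 425 and 355 CPM. Egr2 was lowest in the lowest bin on both plates, with 193 and 148 CPM, 230 and 207 CPM, and 301 and 204 CPM. Its Spearman correlation with Pmp22 across single member wells was 0.272 and 0.134. Across single member wells the Spearman correlation with Pmp22 was 0.794 and 0.869 for Mbp (79 and 70 wells), 0.632 and 0.616 for Hmgcs1, -0.405 and -0.332 for Cdkn1c, -0.515 and -0.210 for Ncam1 and -0.0397 and -0.0812 for Ezr. These correlations describe wells of 1 plate that share its library preparation, with CPM of each well on the same total, and were not tested.

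**Figure D5:**
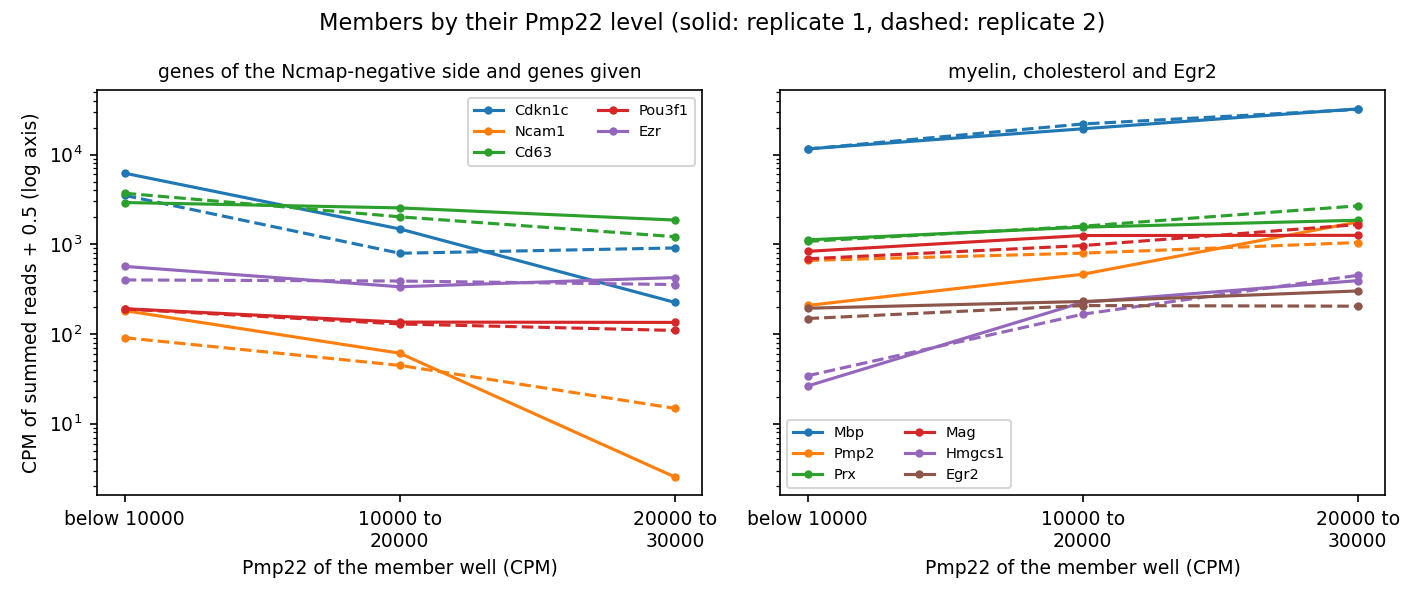
CPM of summed reads + 0.5 (log axis) of member wells in 3 ranges of Pmp22 (horizontal axis, CPM), with solid lines for the replicate 1 and dashed lines for the replicate 2 plate. Cdkn1c and Ncam1 were highest in the range below 10000 CPM, Mbp and Hmgcs1 rose with Pmp22 on both plates, and Ezr and Egr2 stayed within a narrow band.

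Transcripts of both ends were found in the same wells. Ncam1 and Pmp2 both reached 10 CPM in 13 of 79 and 22 of 70 member wells, Ncam1 alone in 17 and 8, Pmp2 alone in 30 and 23, and neither in 19 and 17. Pou3f1 and Egr2 both reached it in 49 of 79 and 53 of 70 member wells. No doublet caller was run on the sorted single wells, and the part of wells with more than 1 cell was not tested. Members' detected genes per well (medians 3291 and 3700) lay between those of Ncmap-negative wells (2925 and 3188.5) and Pmp22-high wells (3723.5 and 4056).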

How the data were processed

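Single eYFP-positive sciatic nerve cells were sorted into 2 plates and prepared with Smart-Seq2, per the labels. The deposited values are counts: the authors counted whole reads per Ensembl gene for each well, without normalization. The submitters' processing notes name bcl2fastq, STAR 2.6.1c, featureCounts and GRCm38.p5; the use of strand in counting is not given in the sources used here. Symbols and coordinates came from GENCODE vM21 (GRCm38), and 113 of 25700 IDs, with 0.0916% of reads, were unmatched. Some items are not reported here.

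Members, gene lists and motifs were chosen with earlier results of these data known. Reads were summed per state and plate, so n = 2 biological replicates per group. The sums were compared with edgeR's quasi-likelihood test (edgeR 4.0.16, R 4.3.3) with TMM scaling, filterByExpr and Benjamini-Hochberg adjustment over all genes tested, and a gene was called at adjusted p below 0.05. Against all other non-cycling wells the fit held 4 sums (2 residual degrees of freedom, common dispersion 0.486), and the pairwise comparisons shared a fit of 6 sums (3 residual degrees of freedom, common dispersion 0.600). Adjusted p therefore rests on few degrees of freedom. Fitted changes use TMM-scaled totals (factors 0.862 to 0.869 in Pmp22-high, 1.01 to 1.04 in member and 1.12 to 1.13 in Ncmap-negative sums) and differ from plain CPM ratios. The gate genes, and Exosc9 and Tnnc2 whose exons overlap gate genes, were left out of tests. The same scripts were tested on simulated data. Named genes were the 6 proposed genes, the 8 called genes with the largest change in each direction of a comparison (the same direction on both plates, mean of 50 CPM or more), up to 4 called members of each list (the 2 most abundant where none was called), and the 4 genes nearest positions 0, 0.5 and 1 (mean of 200 CPM or more, plates within 0.15). Other list members and partners, such as Ngfr, Jun, Egr2, Dhcr7, Fosb and Cdc20, were named after their values were seen. Same-numbered sums came from the same pooled animals, and their deviations correlated at r = 0.140, 0.0299 and 0.117 over 1919 genes. Detection shares were also computed after thinning wells to 200000 reads, which left out 15 and 5 member, 16 and 15 Ncmap-negative and 5 and 4 Pmp22-high wells. Intervals are 95% Clopper-Pearson intervals and cover counting error only. No doublet caller was run. Alternatives were DESeq2 1.42.0, RLE scaling, no filter, a plate block, other gates and left-out sums or wells. Figures and summaries used Python 3.11.15, numpy 2.4.6, pandas 2.3.3, scipy 1.17.1 and matplotlib 3.10.9.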

Additional observations from a re-analysis of the deposited data

Results flagged for a closer look

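Ncmap reads were also found in wells that were not used. Outside the corners, 8 of 55 wells of the replicate 1 plate with fewer than 1500 detected genes held 3 or more Ncmap reads and Pmp22 under the gate. These 8 wells had 1152 to 837793 reads and 750 to 1314 detected genes, and 1 of them held 3 or more Cdkn1c reads. On the replicate 2 plate 1 of 50 such wells did, with 116289 reads and 1220 genes. No corner well (0 of 4 on each plate) held 3 or more Ncmap reads.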

How the results depend on the processing

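Counts of genes past the threshold moved with the test, the filter, the gates and the sums used. Against all other non-cycling wells, 37 genes became 773 with DESeq2, 101 with no filter on low counts, 92 with the plates as a replicate block, 60 with thinned wells, 16 with the Pmp22 gate at 20000 CPM, and 59 to 761 without 1 of the sums. Higher genes were 8.1% of the 37 calls, 33.2% with DESeq2 and 32.6% with the block, while the median of all genes moved from -0.03 to -0.10 with the block, -0.11 with no filter, and -0.17 and -0.20 without the members of replicate 1 and of replicate 2. Against Ncmap-negative wells, 502 genes became 1461 with DESeq2, 1156 with no filter, 271 with cycling sums in the fit and 314 with the Pmp22 gate at 20000 CPM, and 371 to 599 without 1 of the sums; higher genes were 62.7% of calls, 52.2% with DESeq2 and 49.4% with cycling sums. Against Pmp22-high wells, 252 genes became 1157 with DESeq2, 856 with no filter and 107 with cycling sums, and 174 to 372 without 1 of the sums. Between Pmp22-high and Ncmap-negative wells, 1167 genes became 2333, 1886 and 708 under the same settings, and 827 to 1528 without 1 of the sums. The share of members was 17% with the Pmp22 gate at 20000 CPM and 28.1% at 40000 CPM. Lgals3 alone changed sign: against all others its log2 change was -0.36 with the block, -11.58 without the wells with most reads and -15.1 without the members of replicate 2; against Ncmap-negative wells it was -12.55 and -15.49, and against Pmp22-high wells -2.83 and -5.75, under the last 2 settings, and without 1 of the sums it reached at most 4.78, 3.47 and 13.34 in the 3 comparisons. A setting added after seeing the data, which left out the well with the most reads of the gene, gave -0.08 against Pmp22-high wells. The block changed no other call among the 6 proposed genes than those of Cdkn1c and Cd63 given above. The causes of these changes were not tested. Across 110 pairs of a called gene and a comparison, without the 6 proposed genes, 56 were called under every alternative. None of the 2152 alternative values of these pairs changed sign. The pairs were chosen because they were called in the main fit of the same wells, so their stable sign is no independent support. With 2 plates per group, the number of samples limits which changes could be detected.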

Other observations

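Of 16 genes of protein folding in the endoplasmic reticulum and 8 tested genes of axon-glia signalling, 0 were called in members against either neighbour by edgeR, near the share of all genes called (2.31% higher and 1.37% lower against Ncmap-negative wells, 0.859% and 0.991% against Pmp22-high wells). At an unadjusted p below 0.05, 1 folding gene was higher and 1 lower than in Ncmap-negative wells and 4 were higher and 1 lower than in Pmp22-high wells, and DESeq2 called 1 higher and 1 lower, and 2 higher. Of the axon-glia genes, 1 was lower than in Ncmap-negative wells by either count, and against Pmp22-high wells 1 was higher and 1 lower at an unadjusted p below 0.05, and DESeq2 called 1 lower. Hspa5, the main chaperone of the endoplasmic reticulum, had 518 and 427 CPM in members, 601 and 525 CPM in Ncmap-negative wells and 336 and 268 CPM in Pmp22-high wells. Erbb3, the neuregulin receptor gene, had 119 and 158 CPM in members, 162 and 175 CPM and 125 and 84.2 CPM in the neighbours. Of 15 laminin and integrin genes, only Lama4 was lower than in Ncmap-negative wells (86.4 and 116 against 258 and 303 CPM, log2 change -1.33, SE 0.21, adjusted p = 0.0101).

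The rule left out cycling wells, so low levels of cell cycle genes in members beside cycling wells follow from the choice of wells and are given as a description. Of 12 S phase genes, 0 were called against Ncmap-negative wells by edgeR, although all 12 had a log2 change below 0 (median -2.49), 8 were lower at an unadjusted p below 0.05 and DESeq2 called 7 lower. Against Pmp22-high wells edgeR called 0, 1 was higher and 1 lower at an unadjusted p below 0.05, and DESeq2 called 1 higher. Pcna had 92.4 and 135 CPM in members, 141 and 212 CPM in Ncmap-negative wells, 83.4 and 77.4 CPM in Pmp22-high wells and 624 and 506 CPM in cycling wells. Cdc20, which activates the anaphase-promoting complex and whose exons overlap Elovl1, had 29.4 and 43.5 CPM in members against 1020 and 1080 CPM in cycling wells. Cdc20 was higher than in Pmp22-high wells (log2 change 2.61, SE 0.42, adjusted p = 0.0212). It was the only 1 called of 8 tested mitosis genes outside the cycling rule, beside 0.859% of all genes called higher. The call was lost with the Pmp22 gate at 20000 or 40000 CPM, or without the Pmp22-high wells of replicate 2 (log2 change 2.44).

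Pdgfrb, a growth factor receptor gene also used as a pericyte marker, had 41.9 and 44.6 CPM in members, 8.21 and 7.01 CPM in Ncmap-negative wells and 40.2 and 44.4 CPM in Pmp22-high wells. It was higher than in Ncmap-negative wells (log2 change 2.65, SE 0.36, adjusted p = 0.00532), while 0 member wells met the pericyte list. The call of Pdgfrb was lost with cycling sums in the fit (adjusted p = 0.563).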
